A study of Arabidopsis thaliana with 12 samples.

Results

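The plastid genome of Arabidopsis thaliana encodes part of its own gene expression machinery, and 24 probe sets of the array reported on these genes and on the few other plastid genes that lie outside photosynthesis. They were chosen by gene symbol: a single annotated symbol that begins in lower case with rpo, rps, rpl or ycf, or one of clpP, matK, accD, cemA and ccsA. The 2 probe id ranges used for mitochondrial genes were left out. The members are 24 of the 22746 probe sets tested, and each matched a protein-coding gene of the plastid genome in the TAIR10.1 gene table. They comprise 4 RNA polymerase genes, 8 genes of the small and 6 of the large ribosomal subunit, and 6 genes with other functions.

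Whole seedlings of 10 days were compared in 4 groups of 3 biological replicates: wild-type Columbia (WT) at 16C, WT at 23C, the mutant pft1-1 at 16C and pft1-1 at 23C. All 4 groups shared the Columbia background, MS salts agar and continuous cool-white light of 80 micromoles per second and square metre. The mutant is affected in PFT1, the MED25 subunit of Mediator, a protein complex of the nucleus through which activators act on RNA polymerase II. One mutant allele was used and no rescued line is among the samples. No probe set was named for PFT1 in the annotation used, so its own level was not analysed here. Each value is a log2 expression level of 1 probe set on 1 array, on which 1 unit is a factor of 2.

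Plastids make their transcripts with a bacterial-type polymerase, whose core is plastid-encoded, and with phage-type polymerases that are encoded in the nucleus. The messages are translated on bacterial-type ribosomes built from plastid-encoded and nucleus-encoded proteins. Most plastid genes lie in clusters that are read as long precursor RNAs and then cut, spliced and edited. Unlike nuclear messages, plastid messages carry no stable poly(A) tail. In whole seedlings fewer green cells and less plastid RNA per cell cannot be told apart.

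The polymerase genes rpoA, rpoB, rpoC1 and rpoC2 encode the alpha, beta, beta-prime and beta-double-prime subunits of the plastid-encoded enzyme. The gene table places rpoB, rpoC1, rpoC2 and rps2 next to each other. The small subunit genes were rps2, rps3, rps4, rps14, rps15, rps16, rps18 and rps19, and the large subunit genes were rpl14, rpl16, rpl20, rpl22, rpl33 and rpl36. Of these rpl36, rpl14, rpl16, rps3, rpl22 and rps19 form a cluster with rpoA, with genes that are not members between some of them. The genes rpl33, rps18 and rpl20 lie side by side. The products of ycf3 and ycf4 assist the assembly of photosystem I. The gene clpP encodes a catalytic subunit of the Clp protease, accD the beta subunit of the carboxyltransferase of acetyl-CoA carboxylase, matK a maturase for group II introns, and cemA a protein of the plastid envelope. Another 9 plastid probe sets of such genes were not members: 7 listed both copies of a gene that occurs more than once (rps12, rpl2, rpl23, ycf2, rps7 and ycf1), and those of rpl32 and ccsA fell into the excluded id range. Mitochondrial genes of the same symbol exist for 5 members (rps3, rps4, rps14, rps19 and rpl16), and whether their probes also bind those transcripts was not tested.

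All 24 members gave values far above the lower quartile of the table, which was 2.52. They ran from 6.89 for rpoB in pft1-1 at 16C to 13.97 for rpoA in pft1-1 at 23C, in a table whose highest value was 15.24. The nuclear gene LHCB4.1, which encodes a light-harvesting protein and was the only one of 19 green tissue markers with a named probe set, had group means between 14.01 and 14.09.

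The members differed widely between the replicate letters. They were higher on the 4 arrays of replicate C than on the 8 of replicates A and B, by a median of 0.79 log2 units over the members against 0.01 over all probe sets. The direction held for 21 of 24 members (87.5%), as it did for 38 of 43 plastid photosynthesis probe sets (88.4%, median 0.43), 43 of 51 mainly mitochondrial ones (84.3%, median 0.07) and 58% of all probe sets. Replicate C gave the highest value in all 4 groups for 12 of them, and 21 members had their lowest value on an array of replicate A. Replicate C also stood apart in the control probe sets. Poly-A spike-ins averaged 4.84 to 9.51 there and 2.45 to 2.54 on the other arrays, and the 3' probe sets of 3 control genes exceeded the 5' ones by 3.52 to 4.53 against 2.64 to 3.07. Their part in the plastid values was not tested.

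The transcript of rpl16, a protein of the large subunit, showed the widest spread. Values are given in the order of replicates A, B and C throughout. For rpl16 they were 9.19, 11.32 and 13.83 in WT at 16C, 9.03, 10.69 and 12.96 in WT at 23C, 8.28, 10.47 and 13.61 in pft1-1 at 16C, and 8.83, 10.61 and 12.92 in pft1-1 at 23C. In every group replicate A was lowest and replicate C highest, and the 4 groups overlapped throughout. Replicate C exceeded the mean of A and B by 3.53 log2 units, the highest such difference among the 22746 probe sets, and only 4 probe sets had a larger residual SD than its 2.27.

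**Figure D1:**
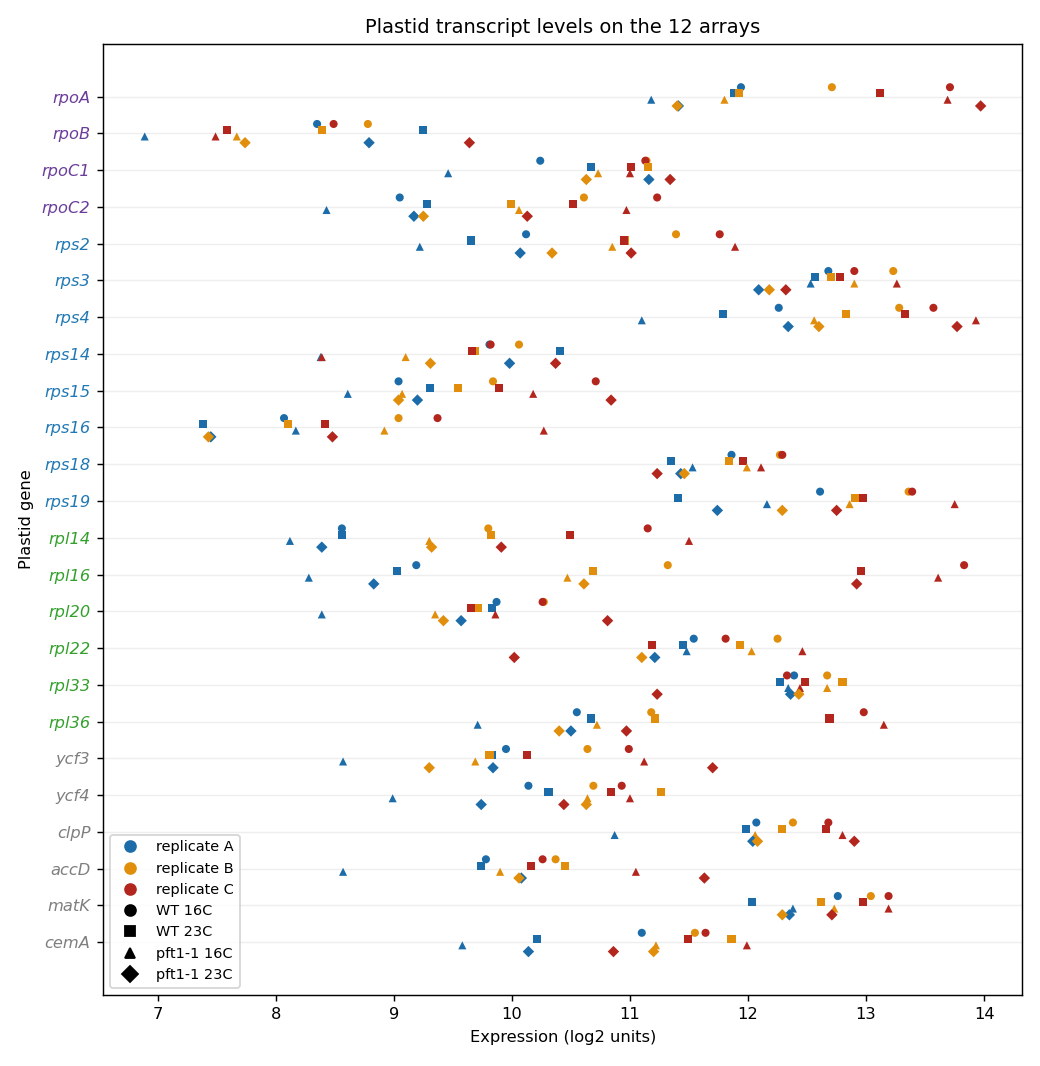
Log2 expression of the 24 plastid transcripts (one row per gene, name colour by function) on the 12 arrays, with colour for the replicate letter and shape for the group. Replicate C values (red) lie to the right for most genes, up to 13.83 for rpl16, and 17 genes have their lowest value in pft1-1 at 16C, replicate A (blue triangle).

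The difference between the letters varied along the plastid genome. In the cluster around rpoA it was 1.84 for rpoA, 1.83 for rpl36 and 1.78 for rpl14, reached its maximum at rpl16, and then dropped to 0.21 for rps3, -0.25 for rpl22 and 0.80 for rps19. In the polymerase cluster it was 1.08 for rps2, 1.23 for rpoC2, 0.47 for rpoC1 and 0.07 for rpoB. Neighbouring genes of one cluster thus gave values on both sides of 1. In the third cluster it was -0.37 for rpl33, 0.18 for rps18, 0.59 for rpl20 and 0.79 for the nearby clpP. Outside these clusters ycf3 and rps4, which are neighbours, gave 1.28 and 1.31, rps15 (letter means 9.04, 9.37 and 10.40) also exceeded 1, and rps16 gave 1.06, accD 0.90, cemA 0.64, ycf4 0.50, matK 0.49 and rps14 -0.03. In all, 10 members exceeded 1 and 8 lay within 0.5 of 0.

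**Figure D2:**
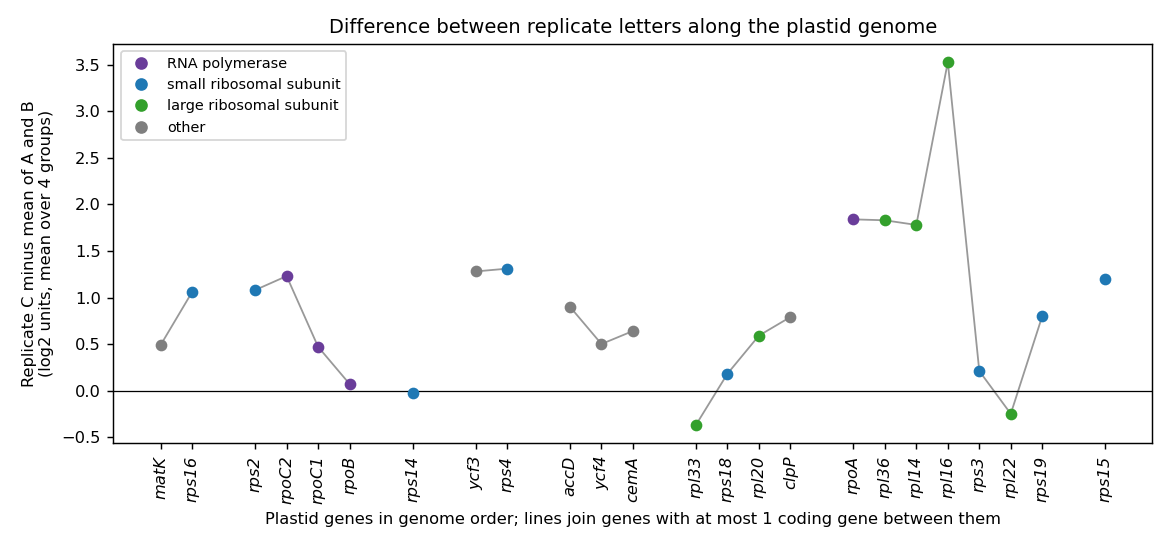
Mean log2 expression of replicate C minus the mean of replicates A and B over the 4 groups (vertical axis), for the 24 genes in their order on the plastid genome, coloured by function. The difference peaks at 3.53 for rpl16 and is near 0 for rpoB (0.07), rps14 (-0.03) and rps3 (0.21).

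The replicate spread was correspondingly wide. The median residual SD around the group means was 0.72 for the members, with a range from 0.24 for rps3 to 2.27 for rpl16. It was 0.58 for the 43 probe sets of plastid photosynthesis genes, 0.24 for 51 probe sets of the excluded id ranges, which are mainly mitochondrial, and 0.25 for all probe sets. Of all probe sets, 95.7% had a smaller residual SD than the median member.

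A single array stood lowest. In pft1-1 at 16C, replicate A, 0 of 24 members reached their own mean over all arrays, the median deviation was -1.36, and 17 members had their minimum. Replicate C of the same group had a median deviation of 0.90 with 22 members above their mean. The comparisons that use this group therefore rest on replicates that lay far apart.

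The first comparison asked whether loss of PFT1 function altered the transcripts at 16C. The members were mostly lower in pft1-1: 21 of 24 fitted differences were negative, with a median of -0.44 log2 units against -0.01 over all probe sets, of which 59.6% were negative. No single difference passed the test. In limma 0 members were called at an adjusted p under 0.05, as were 0.0352% of all probe sets. An unadjusted p under 0.05 was found for 2 members, or 8.33%, and for 4.62% of all probe sets. The groups did not overlap for 3 members (rpoB, rps14 and rpl20, all lower), a share of 12.5%, while such separation was found for 12.8% of all probe sets. The median was -0.81 within replicate A, -0.48 within B and 0.11 within C, and 9 members were lower within all letters, or 37.5%, as were 18.8% of all probe sets. No member was higher within all letters, against 11.2% of all probe sets, and 30% of all probe sets kept 1 sign in either direction. With replicate A of pft1-1 at 16C left out the median was 0.16, and with replicate C of that group left out it was -1.03.

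All 4 polymerase genes were among the negative members and had negative differences within every letter. The lowest was rpoB, for the beta subunit. Its transcript read 8.35, 8.78 and 8.49 in WT at 16C and 6.89, 7.67 and 7.49 in pft1-1 at 16C. The mutant arrays all lay below the WT arrays, and the fitted difference was -1.19 (SE 0.52, adjusted p = 1.0). For rpoA, rpoC1 and rpoC2 the differences were -0.56, -0.44 and -0.48, within overlapping groups.

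Among the small subunit genes 7 of 8 were negative. The most negative member of all was rps14, for a protein of the small subunit head. It read 9.81, 10.06 and 9.82 in WT at 16C and 8.38, 9.10 and 8.39 in pft1-1 at 16C. Every mutant array was lower than every WT array, by a mean of 9.89 ± 0.14 against 8.62 ± 0.41 (SD, n = 3 each). The fitted difference was -1.27 (SE 0.31, adjusted p = 0.449 in limma). The most positive member was rps16 with 8.07, 9.04 and 9.37 in WT against 8.17, 8.92 and 10.27 in the mutant, where the groups overlapped (0.29, SE 0.58, adjusted p = 1.0).

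Of the large subunit genes 4 of 6 were negative. The transcript of rpl20 read 9.87, 10.27 and 10.26 in WT at 16C and 8.39, 9.35 and 9.86 in the mutant. The groups just separated, with a difference of -0.93 (SE 0.42, adjusted p = 1.0). The transcript of rpl22 read 11.54, 12.25 and 11.81 in WT and 11.48, 12.03 and 12.46 in the mutant, which overlapped (0.13, SE 0.37, adjusted p = 1.0). All 6 genes with other functions were negative, from -0.23 for matK to -0.73 for ycf3, and none separated the groups. Plastid photosynthesis genes were negative in 43 of 43 cases with a median of -0.42, and 0 were called. Within replicates A, B and C, 43, 39 and 21 of them were negative, with medians of -0.89, -0.35 and 0.01. Of these 43, 4 had an unadjusted p under 0.05, as did 4.62% of all probe sets. Of the 51 mainly mitochondrial probe sets 45 were negative as well, with a median of -0.04.

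At 23C the same genotype comparison gave smaller differences. Of the 24 members 16 were negative and the median was -0.10, against 0.01 over all probe sets. In limma 0 members were called, against 0.022% of all probe sets. At an unadjusted p under 0.05 there was 1 member, or 4.17%, against 7.6% of all probe sets. Only rps3 had groups without overlap, 1 of 24 or 4.17%, beside 7.95% of all probe sets. Lower values within all letters were found for 8 members, or 33.3%, and for 12.6% of all probe sets. Higher values within all letters were found for 0 members and for 12.6% of all probe sets, and 25.2% of all probe sets kept 1 sign in either direction. The median within letters was -0.09, -0.51 and 0.01, and leaving out single arrays moved the overall median between -0.48 (without WT at 23C, replicate A) and 0.08 (without WT at 23C, replicate C).

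The transcript of rps3, a protein of the small subunit, read 12.57, 12.70 and 12.78 in WT at 23C and 12.09, 12.18 and 12.32 in pft1-1 at 23C. All mutant arrays were below all WT arrays, and the difference was -0.49 (SE 0.19, adjusted p = 0.608). The most negative members were rpl36 and rpl22, both of the large subunit. For rpl36 the values were 10.67, 11.21 and 12.69 in WT and 10.50, 10.40 and 10.97 in the mutant, a difference of -0.90 (SE 0.93, adjusted p = 0.916). These groups overlapped, as did those of rpl22 with 11.45, 11.93 and 11.19 against 11.21, 11.10 and 10.02 (-0.75, SE 0.37, adjusted p = 0.729). Single arrays set the size of both: with replicate C of WT at 23C left out rpl36 gave -0.32, and with replicate C of pft1-1 at 23C left out rpl22 gave -0.37.

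The most positive members at 23C were accD and ycf3, and replicate C gave the largest difference for both. For accD the values were 9.74, 10.45 and 10.16 in WT and 10.08, 10.06 and 11.63 in the mutant (0.47, SE 0.62, adjusted p = 0.963). For ycf3 they were 9.83, 9.81 and 10.13 against 9.84, 9.30 and 11.70 (0.35, SE 0.72, adjusted p = 1.0). Both pairs of groups overlapped. From replicates A and B alone the differences were -0.02 for accD and -0.25 for ycf3.

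Averaged over both temperatures the genotype difference was negative for 22 of 24 members with a median of -0.28, beside -0.00 over all probe sets. In limma 0 members were called, against 0.0572% of all probe sets. At an unadjusted p under 0.05 there was 1 member, or 4.17%, against 6.24% of all probe sets. The most negative averages were those of rps14 (-0.65, SE 0.22, adjusted p = 0.65) and rpl36 (-0.64, SE 0.66, adjusted p = 1.0). The positive exceptions were accD (0.09, SE 0.44) and rps16 (0.06, SE 0.41). Both turned negative when only replicates A and B were used, at -0.43 and -0.15.

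**Figure D3:**
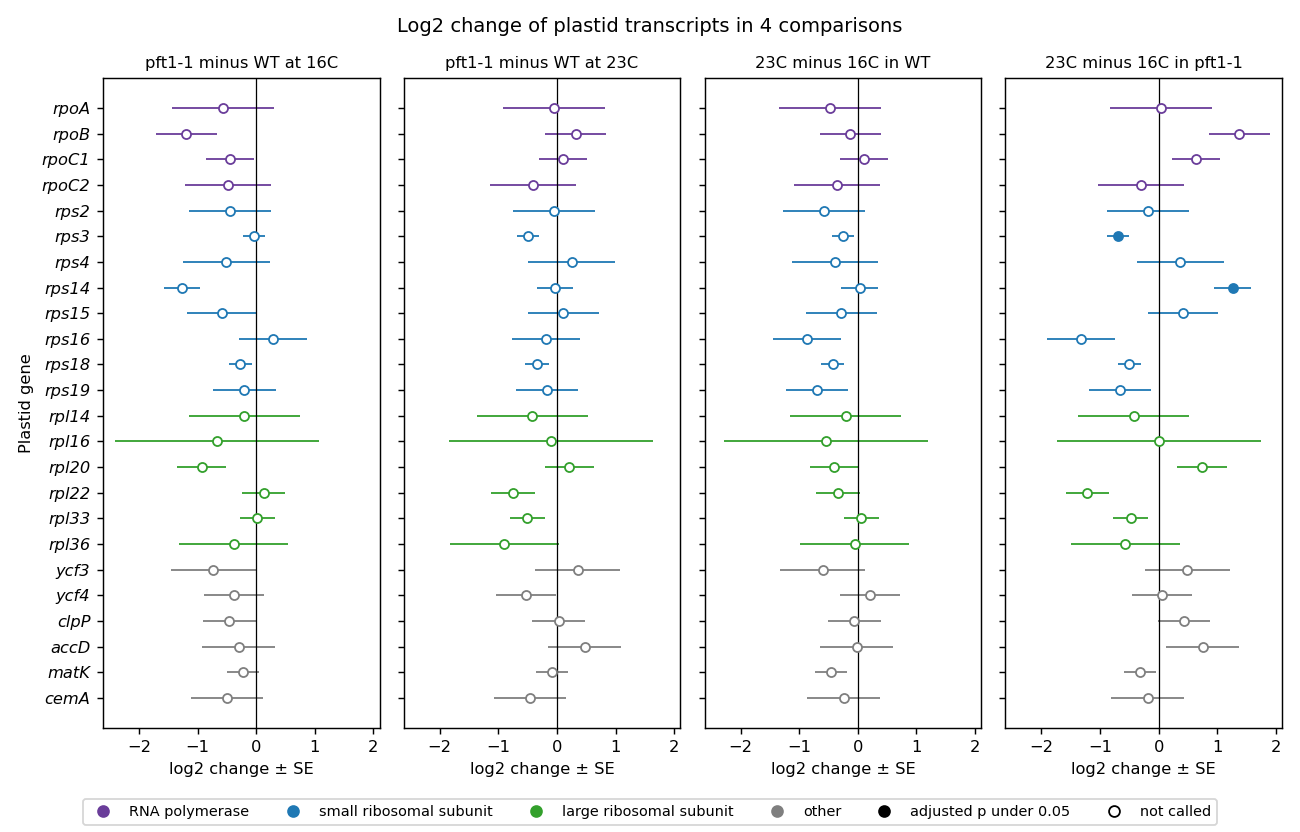
Fitted log2 change with its standard error (horizontal bars) for the 24 plastid transcripts in the genotype comparison at each temperature and the temperature comparison in each genotype, with colour for function. Filled points passed an adjusted p under 0.05, which held for rps14 (1.26) and rps3 (-0.70) in pft1-1 by temperature.

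In WT the transcripts were on the whole slightly lower at 23C than at 16C. The fitted difference was negative for 20 of 24 members with a median of -0.31, whereas all probe sets had a median of 0.02 and 36.3% were negative. In limma 0 members were called, against 4.89% of all probe sets. An unadjusted p under 0.05 was found for 0 members and for 18.7% of all probe sets. Groups did not overlap for 1 member, rpl20, or 4.17%, against 26% of all probe sets. Within all letters 13 members were lower, or 54.2%, as were 19.1% of all probe sets. None was higher within all letters, and 52% of all probe sets kept 1 sign, most of them higher (32.9%). Leaving out single arrays moved the median between -0.56 (without WT at 16C, replicate A) and -0.07 (without WT at 16C, replicate C).

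The most negative members in WT were rps16 and rps19 of the small subunit. For rps16 the values were 8.07, 9.04 and 9.37 at 16C and 7.38, 8.10 and 8.42 at 23C (-0.86, SE 0.58, adjusted p = 0.513). For rps19 they were 12.61, 13.36 and 13.39 at 16C and 11.41, 12.91 and 12.97 at 23C (-0.69, SE 0.53, adjusted p = 0.577). Each letter was lower at 23C for both genes, yet the groups overlapped because the letters lay far apart. The most positive members were ycf4, with 10.14, 10.69 and 10.93 at 16C against 10.31, 11.26 and 10.84 at 23C (0.21, SE 0.51, adjusted p = 0.922), and rpoC1, with 10.24, 11.14 and 11.13 against 10.67, 11.15 and 11.01 (0.10, SE 0.41, adjusted p = 0.94). These groups overlapped as well. The lowest adjusted p was 0.308, for rps18, which fitted -0.43 (SE 0.20).

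In pft1-1 single transcripts differed between the temperatures in opposite directions. At 23C rps14 rose by 1.26 log2 units and rps3 fell by 0.70, and these were the only members called. Both calls were lost in some of the fits that left out 1 array. Called members made up 8.33% of the members, below the 17.7% called among all probe sets, with 1 of 24 higher against 8.41% of all probe sets and 1 of 24 lower against 9.27%. The members as a whole were balanced: 12 were positive and 12 negative, with a median of -0.09 beside 0.04 over all probe sets. Groups did not overlap for 5 members, or 20.8%, namely rpoB and rps14 (higher) and rps3, rps18 and rpl22 (lower), while 47.9% of all probe sets separated. One sign within all letters was found for 11 members, or 45.8%, against 69% of all probe sets. At an unadjusted p under 0.05 in limma there were 6 members, or 25%, against 32.3% of all probe sets.

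The transcript of rps14 read 8.38, 9.10 and 8.39 at 16C and 9.98, 9.31 and 10.37 at 23C in pft1-1. All arrays at 23C were higher than all at 16C, with means of 9.89 ± 0.53 and 8.62 ± 0.41 (SD, n = 3 each). The fitted rise was 1.26 (SE 0.31, adjusted p = 0.0241 in limma). Within letters it was smallest in B (0.21) and largest in C (1.98). The call was lost when any of replicates A and C of either pft1-1 group was left out, with adjusted p between 0.0721 and 0.083. In WT the values of rps14 were 10.41, 9.69 and 9.66 at 23C, and their mean of 9.92 was close to the 9.89 at 16C.

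The transcript of rps3 read 12.53, 12.90 and 13.26 at 16C and 12.09, 12.18 and 12.32 at 23C in pft1-1. All arrays at 23C were lower, and every letter moved the same way (-0.44, -0.72 and -0.93). The fitted fall was -0.70 (SE 0.19, adjusted p = 0.034). The call was lost in 7 of the 12 fits that left out 1 array: replicates A, B or C of pft1-1 at 23C, B or C of pft1-1 at 16C, C of WT at 16C and B of WT at 23C. The adjusted p in those fits ran from 0.0506 to 0.106.

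Residuals of arrays that share a letter correlated in this comparison, though what the letters stand for is not stated. With the letters as a block 4 members were called. The share of all probe sets called with the block is not given here, so the 4 cannot be set against it. The block kept rps14 (adjusted p = 0.0399) and rps3 (adjusted p = 0.0133). It added 2 more small subunit genes that were lower at 23C, rps16 (-1.33, adjusted p = 0.0127) and rps18 (-0.50, adjusted p = 0.0486). For rps16 the values were 8.17, 8.92 and 10.27 at 16C and 7.45, 7.43 and 8.48 at 23C. Each letter was lower at 23C (-0.71, -1.49 and -1.79), while the groups overlapped. Without the block its SE was 0.58 and its adjusted p was 0.146.

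Of the other members rpl22 was next in the test. It read 11.48, 12.03 and 12.46 at 16C and 11.21, 11.10 and 10.02 at 23C in pft1-1. The groups did not overlap, and the fitted difference of -1.22 (SE 0.37) missed the threshold (adjusted p = 0.0536, and 0.0505 with the letters as a block). It was called under 4 alternatives, with an intensity trend (adjusted p = 0.0441), median centring (0.0466), the upper 60% of probe sets (0.0233) and array weights (0.0199). It was not called in any of the 12 fits that left out 1 array (adjusted p 0.0518 to 0.151). Nor was it called with letters A and B alone (0.321), only the arrays compared (0.137), renewed quantile normalisation (0.0629) or a block for letter C (0.0512). Replicate C gave -2.44 and replicate A -0.27. Its neighbours in the genome, rps3 and rps19, had negative differences too (-0.70 and -0.66), whereas rpl16 and rpl14 on the other side of rps3 gave 0.00 (SE 1.74) and -0.43 (SE 0.95).

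The polymerase genes did not share a direction with temperature in pft1-1. For rpoB the values were 6.89, 7.67 and 7.49 at 16C and 8.79, 7.74 and 9.64 at 23C. The arrays at 23C all lay above those at 16C, the smallest rise was 0.07 in replicate B, and the fitted difference of 1.37 (SE 0.52) gave an adjusted p of 0.102. Its cluster neighbours rpoC1 and rpoC2 gave 0.64 (SE 0.41) and -0.30 (SE 0.73), rps2 gave -0.18 (SE 0.70), and rpoA gave 0.04 (SE 0.87). Of the genes with other functions accD (0.75, SE 0.62), ycf3 (0.49, SE 0.72) and clpP (0.43, SE 0.45) were positive, ycf4 was near 0 (0.06, SE 0.51), and cemA (-0.19, SE 0.62) and matK (-0.32, SE 0.27) were negative. None of these was called.

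**Figure D4:**
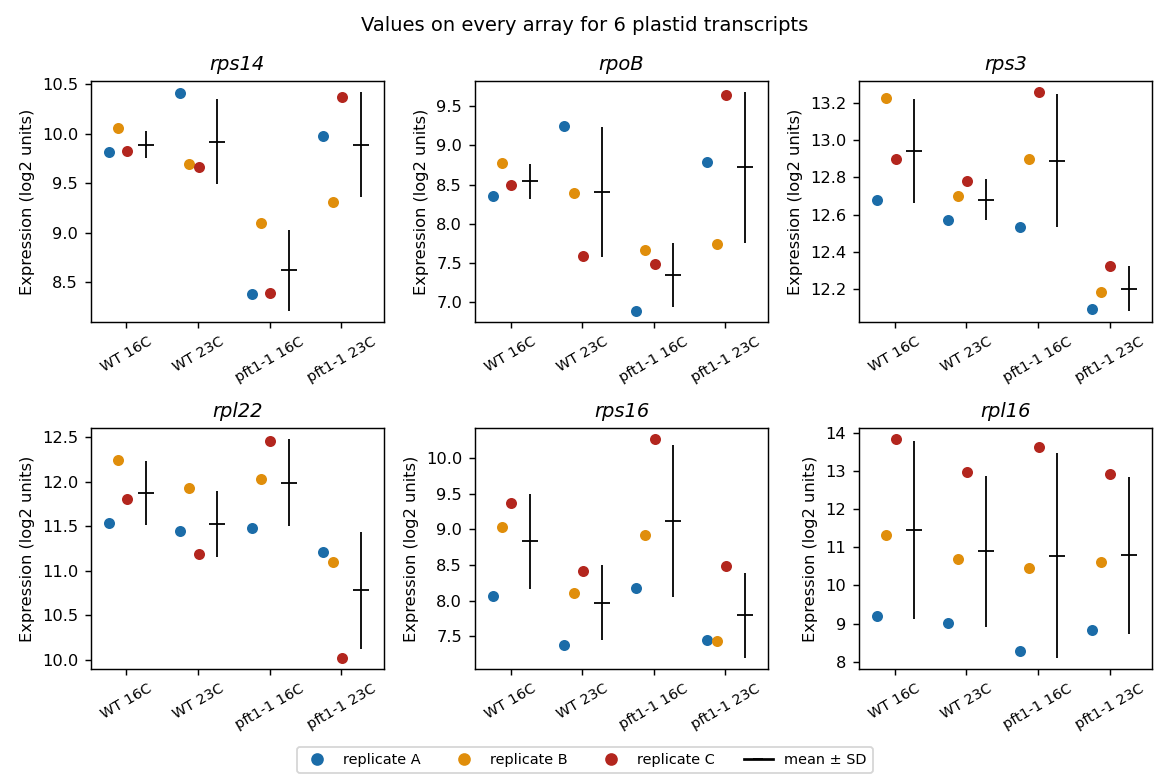
Log2 expression of 6 plastid transcripts on every array by group, with the mean and SD of 3 replicates (black) and colour for the replicate letter. The pft1-1 arrays at 16C are the lowest group for rps14 (8.38 to 9.10), the pft1-1 arrays at 23C are the lowest for rps3 (12.09 to 12.32), and rpl16 spreads by letter in every group.

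The rise of rps14 and the higher rpoB values at 23C in pft1-1 share their 3 arrays at 16C with the genotype comparison at that temperature, where both genes were low. The difference between the genotypes in their response to temperature was tested as an interaction. None of the members was called, and the share of all probe sets was 0%, with 1 member at an unadjusted p under 0.05 (4.17%, against 5.54% of all probe sets). The most positive interactions were those of rpoB (1.51, SE 0.73, adjusted p = 0.934) and rps14 (1.23, SE 0.44, adjusted p = 0.808). The most negative were those of rpl22 (-0.88, SE 0.53, adjusted p = 0.947) and rpl33 (-0.53, SE 0.42, adjusted p = 0.947). For rpl33, of the large subunit, the values were 12.39, 12.67 and 12.33 in WT at 16C, 12.27, 12.80 and 12.48 in WT at 23C, 12.34, 12.67 and 12.44 in pft1-1 at 16C and 12.36, 12.43 and 11.23 in pft1-1 at 23C. Only the last of these arrays stood away from the rest.

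That array, replicate C of pft1-1 at 23C, also had the lowest value of rps18 (11.23) and rpl22 (10.02) and the highest value of rpoA (13.97), rpoB (9.64), rpoC1 (11.34), rps15 (10.84), rpl20 (10.81), ycf3 (11.70), clpP (12.90) and accD (11.63). It had the largest excess of 3' over 5' signal (4.53) and the highest hybridisation controls (11.08, against 9.58 to 10.22 on the other arrays). Their part in these values was not tested. With this array left out 0 members were called for temperature in pft1-1, and the count was also 0 with replicate A of the same group or replicate C of pft1-1 at 16C left out.

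The nuclear genes that supply the same machinery could be followed only in part. Of 39 nuclear genes for plastid ribosomal proteins 10 had a named probe set, with a median of -0.35 for temperature in pft1-1. Of all probe sets 9.27% were called lower at 23C there and 8.41% higher. Among the 10, 0 were called higher and 5 lower. They were PRPL19B (-1.19, adjusted p = 0.00735), PRPL5 (-0.86, adjusted p = 0.0066), PRPS6 (-0.50, adjusted p = 0.0316), PRPL34 (-0.48, adjusted p = 0.0143) and PRPL17 (-0.23, adjusted p = 0.0459, and 0.0525 with the letters as a block). In WT 9 of 10 were negative with a median of -0.23 and 0 were called, against 4.89% of all probe sets. Between the genotypes 0 were called at either temperature. An unadjusted p under 0.05 was found for 6 of the 10 at 23C and 1 at 16C, against 7.6% and 4.62% of all probe sets. The difference between the genotypes was not called for any of them in the interaction. Of the 8 small and 6 large subunit genes among the members, 1 was called higher and 1 lower for temperature in pft1-1.

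Of 13 nuclear Clp protease genes 4 had a named probe set. At 23C in pft1-1 CLPT2 alone was called (-0.55, adjusted p = 0.031), where plastid clpP gave 0.43. All 4 had an unadjusted p under 0.05 there, as did 32.3% of all probe sets. The others were CLPP4 (-0.76, adjusted p = 0.13), CLPT1 (-0.24, adjusted p = 0.122) and CLPR3 (0.38, adjusted p = 0.0753). Of 23 nuclear genes for plastid transcription only RPOTmp, a phage-type polymerase shared with mitochondria, had a named probe set. RPOTmp was not called in any comparison (0.17 with temperature in each genotype). The lists of nuclear acetyl-CoA carboxylase subunits (4 genes) and plastid RNA processing factors (8 genes) had 0 genes with a named probe set in the annotation used. Whether other probe sets of the array report on the unmatched genes was not tested.

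Other organelle transcripts were compared in the same fit. Among 43 plastid photosynthesis probe sets 15 were negative for temperature in pft1-1, with a median of 0.32. Only that of psbA, the D1 protein of photosystem II, was called, and it was higher at 23C (0.72, adjusted p = 0.0443, and 0.0559 with the letters as a block). Among the 51 mainly mitochondrial probe sets 4 were called higher at 23C in WT and 7 in pft1-1, and 0 were called lower. Of all 22746 probe sets 395 were called higher at 23C in WT, and 8.41% in pft1-1. Whether these counts differ from those of the members was not tested.

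Tissue markers gave the following picture. Of 9 root markers 3 had a named probe set, and their summed linear level was lower at 23C than at 16C in each genotype. It ran from 7765 to 9747 in WT at 16C, 5017 to 7086 in WT at 23C, 5203 to 9193 in pft1-1 at 16C and 2718 to 4985 in pft1-1 at 23C. Nearly all of this was PYK10, a root and hypocotyl beta-glucosidase, which fell by 0.93 in pft1-1 (adjusted p = 0.0398), while the means of EXPA7 and EXPA18, expansins of root hairs, at 23C were 2.03 and 2.33 in WT and 2.21 and 2.41 in pft1-1, below the table's lower quartile. The level of the green tissue marker LHCB4.1 ran from 16052 to 19412 in WT at 16C, 16692 to 17839 in WT at 23C, 15329 to 17436 in pft1-1 at 16C and 16224 to 18601 in pft1-1 at 23C. The part of tissue proportions in the plastid values was not tested. Of the 5 seed storage markers 0 had a named probe set.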

How the data were processed

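Seedling RNA was hybridised to 12 one-colour Affymetrix arrays, labelled with biotin from 5 ug of total RNA per the labels' protocols. The deposited values are in log2 units, 1 per probe set and array, made by the authors with RMA and affy per the submitters' processing notes, which give no versions. The sources used here do not state how the labelling was primed. The table held 22810 probe sets, of which 64 controls were set aside. No filter on low values was applied to the remaining 22746.

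Symbols were taken from the supplied platform annotation, and gene identities and neighbours from the TAIR10.1 gene table. No sequence was used. All probe sets were fitted in limma 3.58.1 (R 4.3.3) with 4 group means on all 12 arrays (8 residual and 1.05 prior degrees of freedom). Calls used an adjusted p (Benjamini-Hochberg across all 22746) below 0.05. SE is limma's moderated standard error. The procedure was tested on simulated data. The number of arrays limits the precision.

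The members, the 8 lists and the tests were chosen with earlier results of these data known. Full values were given for called members and, in each comparison, the 2 most positive and 2 most negative. The values of rpl16 and rpl20 were added after they were seen. Replicate letters come from the sample titles. Residuals of arrays that share a letter correlated above 0.1 in all 3 letters for genotype at 23C (0.129, 0.473 and 0.158), temperature in WT (0.421, 0.274 and 0.529) and temperature in pft1-1 (0.2, 0.196 and 0.339). They did not for genotype at 16C (0.357, -0.101 and 0.474). Alternatives were a block for the letters, a block for letter C, the arrays of A and B only, array weights, an intensity trend, renewed quantile normalisation, median centring, the upper 60% of probe sets by mean, only the arrays compared, stricter thresholds and each array left out. Adding rpl32 and ccsA was chosen after seeing the data.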

Additional observations from a re-analysis of the deposited data

Results flagged for a closer look

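The temperature differences of 2 members had opposite signs in the genotypes within every letter. For rpl20 the difference between 23C and 16C was -0.04, -0.57 and -0.60 in WT (letters A, B and C) and 1.19, 0.07 and 0.95 in pft1-1, so that the response of pft1-1 exceeded that of WT by 1.14 log2 units. This difference was tested as an interaction and was not called (SE 0.60, adjusted p = 0.947 in limma). For clpP the differences were -0.09, -0.09 and -0.01 in WT and 1.17, 0.01 and 0.11 in pft1-1, and the interaction of 0.49 was not called (SE 0.64, adjusted p = 0.95). Most of the clpP value came from letter A, where pft1-1 at 16C read 10.87 against 12.06 and 12.80 in the other replicates.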

How the results depend on the processing

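Counts of called members were 0 in every comparison except temperature in pft1-1 under all alternatives run. For temperature in pft1-1 the 2 members called became 7 with array weights (rps14, rpoB, rps3, rps16, rps18, rps19 and rpl22), 4 with the replicate block, 4 among the upper 60% of probe sets (rps14, rpoB, rps3 and rpl22), 3 with an intensity trend or median centring (rps14, rps3 and rpl22), 3 with a block for letter C (rps14, rps3 and rps16), 1 after renewed quantile normalisation (rps14), 1 at a log2 change of at least 1, and 0 with letters A and B alone, with only the arrays compared or at an adjusted p under 0.01. Leaving out 1 array gave 0 to 2. The shares of all probe sets called under these alternatives are not given here, so these counts cannot be set against them. With the replicate block the members called in the other comparisons stayed at 0, and the block changed no other call of a member.

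With array weights the median genotype difference moved to -0.45 at 23C and to -0.57 over both temperatures. Leaving out 1 array moved the medians between -0.48 and 0.08 for genotype at 23C, -1.03 and 0.16 at 16C, -0.48 and -0.06 over both, -0.56 and -0.07 for temperature in WT, -0.55 and 0.48 in pft1-1, and -0.29 and 0.78 for the interaction.

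Signs of small differences turned. With array weights and with letters A and B alone, respectively, the genotype difference at 23C was -0.06 and -0.25 for ycf3 and -0.15 and -0.02 for accD, that at 16C was -0.15 and -0.01 for rps16 and -0.01 and -0.13 for rpl22, and the average was -0.36 and -0.15 for rps16 and -0.32 and -0.43 for accD. Leaving out 1 array gave -0.35 to 0.84 for ycf3 and -0.04 to 0.74 for accD at 23C, -0.28 to 0.77 for rps16 and -0.11 to 0.38 for rpl22 at 16C, -0.23 to 0.30 for rps16 and -0.21 to 0.41 for accD on average, and -0.19 to 0.26 for rpoC1 and -0.02 to 0.46 for ycf4 with temperature in WT. The cause of these changes of sign was not tested. These values come from 3 arrays a group with a wide spread between letters, and they give no depth.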

Other observations

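Of the 9 plastid probe sets that were not members, 1 was called. The call was for temperature in pft1-1, where 17.7% of all probe sets were called. The probe set for both copies of ycf2, a gene of the inverted repeat, read 7.27, 7.58 and 7.26 in WT at 16C, 7.89, 7.37 and 6.91 in WT at 23C, 5.57, 6.15 and 6.59 in pft1-1 at 16C, and 7.20, 6.97 and 7.89 in pft1-1 at 23C (replicates A, B and C). The pft1-1 arrays at 16C lay below all others. The rise at 23C in pft1-1 was 1.25 (SE 0.34, adjusted p = 0.0332), beside 1.26 for rps14 and 1.37 for rpoB. The genotype difference at 16C was -1.27 (SE 0.34, adjusted p = 0.538), and the interaction of 1.23 was not called (SE 0.48, adjusted p = 0.833). These 3 probe sets share the same arrays, and ycf2 was chosen after its values were seen.

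The difference between replicate C and the mean of A and B was 2.32 and 1.92 for 2 probe sets of rps12, 2.31 for rps7, 0.68 for ccsA, 0.59 for ycf1, 0.16 for ycf2, 0.15 for rpl32, -0.06 for rpl2 and -0.28 for rpl23.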
